A study of Mus musculus with 4 samples.

Results

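Germinal center (GC) B cells of a mouse with heterozygous loss of both Crebbp and Kmt2d (CK) were compared with those of a mouse with heterozygous loss of Crebbp alone (C), subtype by subtype and across all genes. The comparison addresses what the loss of 1 Kmt2d allele adds on a Crebbp-heterozygous background. It rests on the 5994 cells of these libraries that the deposited annotation named, 2041 in C and 3953 in CK, out of 9804 annotated GC B cells in the series. Splenic B220+IgD- cells had been sorted from mice 10 days after immunization with sheep red blood cells, a T cell-dependent antigen, and their transcripts were counted by droplet-based single-cell RNA sequencing of 3' ends. All mice were about 8 weeks old, on a C57BL/6J background, and carried Cγ1-cre in 1 copy, whose recombinase is induced in GC B cells after immunization. The C mouse carried in addition 1 floxed Crebbp allele, the CK mouse 1 floxed Crebbp and 1 floxed Kmt2d allele, the K mouse 1 floxed Kmt2d allele, and the WT mouse no floxed allele. With 1 mouse and 1 library per genotype, differences could not be held against a spread between replicates, and genotypes were not tested against each other. Intervals are at the 95% level and reflect the counting of UMIs or cells alone.

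CREBBP is a histone acetyltransferase and KMT2D a histone methyltransferase, and both act at enhancers, the DNA elements that raise transcription of genes at a distance. In the GC, B cells divide and mutate their antibody genes as centroblasts (CB) in the dark zone, then become centrocytes (CC) in the light zone, where they present antigen on MHC class II to follicular helper T cells. Cells that receive help re-enter the dark zone or leave as memory B cells or plasma cells. Loss-of-function mutations in both genes are frequent in follicular lymphoma and diffuse large B cell lymphoma.

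The C library held 9981 barcodes with 33270825 UMIs (unique molecular identifiers, by which each captured transcript is counted once), and the CK library 12852 barcodes with 39803865 UMIs. T cells of the same libraries served as reference, a cell type in which the Cγ1 promoter is not active. They were taken as barcodes outside the annotation with at least 2 summed UMIs of Cd3e, Cd3d and Cd3g, which gave 2419 cells in C and 4035 in CK, or 24.2% and 31.4% of barcodes. Another 245 barcodes in C and 360 in CK held 1 such UMI and stayed out, and 66 and 219 of those included held exactly 2. Levels are given as CPM, the UMIs of a gene scaled to all UMIs of the same library and cell type. T cell genes other than Cd3, among them Trac and Lck, summed to 6823 in C and 6558 CPM in CK in these cells, and to between 60.1 and 207 CPM in the annotated subtypes. B cell RNA was present in the T cells as well, with Cd74 at 4354 CPM in C and 4263 CPM in CK against 20915 and 18168 CPM in CB. Scrublet marked 11.6% of these T cells in C and 11.4% in CK as doublets, and free RNA and doublets were not separated in them. Barcodes shared by the libraries numbered 31, of which 2 were annotated in both. The Y-linked gene Ddx3y was counted in each library, and Xist held at most 1 UMI per subtype in C and CK, whereas the study describes its mice as female.

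Kmt2d was at 15.4 CPM in C and 16.1 CPM in CK in CB (32 and 76 UMIs), at 22.7 and 15.3 CPM in trans_CB_CC cells, at 27.6 and 17.0 CPM in CC, and at 31.3 and 25.5 CPM in T cells. Its log2 ratio of CK over C was 0.07 (-0.55 to 0.71) in CB, -0.57 (-1.03 to -0.11) in trans_CB_CC cells, -0.70 (-1.31 to -0.10) in CC and -0.30 (-0.55 to -0.04) in T cells. Kmt2d was thus lower in CK in 3 of these 4 cell groups, T cells included. Crebbp, of which both mice carry 1 floxed allele, was at 45.2 CPM in C and 39.9 CPM in CK in CB, with ratios whose intervals included 0 in CB, trans_CB_CC cells and CC and a ratio of -0.24 (-0.41 to -0.08) in T cells. Since reads come from the 3' end of a transcript and the floxed exons may lie elsewhere, the genotypes cannot be checked from these levels.

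In the deposited annotation, GC B cells of CK held a larger share of early CB and CB than those of C and a smaller share of prememory cells. The annotation names early CB, CB, cells in transition between CB and CC (trans_CB_CC), CC, prememory cells and recycling cells. Summed levels of 7 GC markers, among them Bcl6, Fas, S1pr2, Mef2b, Rgs13 and Basp1, lay between 2490 and 2974 CPM in early CB, CB, trans_CB_CC and CC of both libraries. In cells named prememory they were at 207 CPM in C and 251 CPM in CK, below the 371 and 497 CPM of T cells, and markers of follicular and marginal zone B cells were at 1046 and 859 CPM. The prememory name was thus borne by cells with low GC markers in both libraries.

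Early CB made up 5.39% (4.45 to 6.46%) of annotated cells in C and 8.65% (7.79 to 9.57%) in CK, a difference of 3.26 percentage points (1.89 to 4.58). CB made up 20.6% in C and 25.6% in CK, which is 5.0 points more (2.73 to 7.22). The trans_CB_CC share was 37.2% in C and 37.9% in CK, and the CC share 25.2% and 23.7%, and the intervals of both differences included 0 (-1.96 to 3.26 and -3.90 to 0.76 points). Prememory cells made up 11.0% (9.70 to 12.5%) in C, with 225 cells, and 2.91% (2.41 to 3.48%) in CK, with 115 cells, a difference of -8.11 points (-9.64 to -6.67). Recycling cells numbered 10 in C and 49 in CK and were too few for a comparison of genes.

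The annotation holds no cell with 2500 genes or more, and this limit bore more on C than on CK. Where cells above it were added and named after their 25 nearest cells, a rule that returned the deposited name for 82.7% of annotated cells, they made up 24.9% of GC B cells in C and 14.8% in CK. Among CB they made up 48.2% in C and 31.3% in CK, and among early CB 53.6% and 22.8%. With these cells included, the difference was 0.83 points (-0.57 to 2.19) for early CB and 1.89 points (-0.32 to 4.08) for CB, so that both intervals included 0. The prememory share was still lower in CK, at 2.56% against 8.46% in C, a difference of -5.89 points (-7.09 to -4.76). B cells outside the annotation, without GC gene UMIs, were fewer in CK as well. They numbered 2774 of 9981 barcodes in C and 1752 of 12852 in CK. Whether the lower prememory share is particular to GC B cells was not tested.

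**Figure D1:**
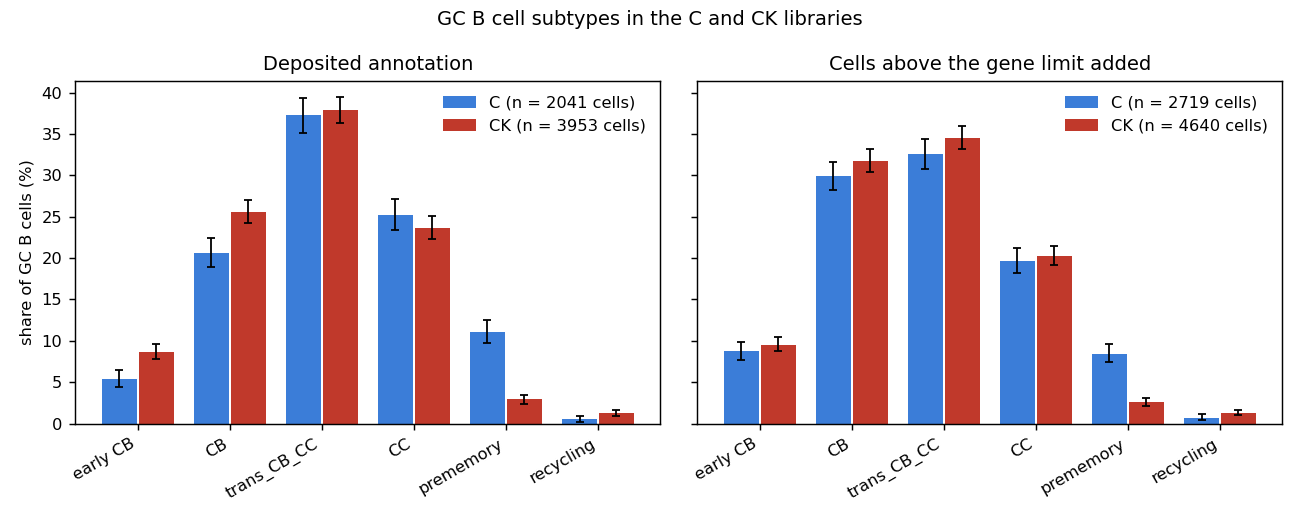
Share of GC B cells in each subtype (percent, bars) in the C and CK libraries, for the deposited annotation (left) and with cells above the gene limit added (right); error bars are exact 95% binomial intervals and cover counting error only. Prememory cells are fewer in CK in both panels (2.91% against 11.0%, and 2.56% against 8.46%), whereas the CB bars stand 5.0 points apart on the left and 1.89 on the right.

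Fewer UMIs were captured per cell in CK than in C in every subtype. Medians were 5826.5 in C and 5128 in CK in early CB, 4936 and 4604 in CB, 4290.5 and 3617.5 in trans_CB_CC, 3498 and 2670 in CC, and 2650 and 1991 in prememory cells. The ratio of CK to C was 0.880, 0.933, 0.843, 0.763 and 0.751 in that order. T cells had medians of 2531 in C and 2041 in CK, a ratio of 0.806, and B cells outside the annotation a ratio of 0.772. Among annotated cells, the ratios of CB and CC thus lie on either side of those of T cells and of B cells outside the annotation. For CB this depended on the limit on genes. With cells above that limit added, the ratio was 0.719 in early CB and 0.797 in CB, both below that of T cells. The part of the whole library in the CC value cannot be told apart from that of the genotype. Levels below are scaled to the UMIs of each library and subtype and do not carry this difference.

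Across genes, CK and C were close. A ratio was formed for each gene with at least 100 UMIs over both libraries, and a gene was taken as past the fold at 1.5-fold or more. In CB, 108 of 5996 genes were past it upward in CK (1.8%) and 112 downward (1.87%). In trans_CB_CC the numbers were 120 (1.82%) and 99 (1.5%) of 6594 genes, in CC 82 (1.67%) and 59 (1.2%) of 4900, and in early CB 58 (1.76%) and 51 (1.55%) of 3290. Prememory cells, with 1423 genes, had 12 upward (0.843%) and 34 downward (2.39%). T cells, with 8755 genes, had 208 upward (2.38%) and 71 downward (0.811%). They held 7606187 UMIs in C and 10753586 in CK, against 2078940 and 4710322 in CB, so these shares were not formed at like depth. Most of the genes past the fold were sparse, and at 400 or more UMIs the counts were 16 upward and 7 downward in CB, 16 and 15 in trans_CB_CC, and 7 and 3 in CC, the last being Fcer2a, Gsn and Tm6sf1. The intervals given for single genes are not adjusted for the number of genes.

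Few genes were past the fold in CB, trans_CB_CC and CC alike, and they were followed across the 4 libraries. Of the 5 genes that were lower in CK in all 3 subtypes, Gsn, Lax1 and Lst1 were not past the fold in T cells, whereas Fcer2a and Hbb-bt were. Of the 6 genes that were higher in all 3, Gm26917 and Trio were not past it in T cells and the other 4 were, among them Ly6k, Akap12 and Gm10076. Of these 11 genes, 6 were thus past the fold in the same direction in T cells.

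Gsn encodes gelsolin, a protein that severs and caps actin filaments. In CB its level was 143 CPM in WT, 109 CPM in C, 77.3 CPM in K and 52.4 CPM in CK. In trans_CB_CC it was at 159, 137, 101 and 73.5 CPM in the same order, and in CC at 209, 177, 148 and 117 CPM. In each subtype the order of the libraries was WT, C, K and CK from high to low. The log2 ratio of CK over C was -1.05 (-1.32 to -0.79) in CB, -0.90 (-1.09 to -0.71) in trans_CB_CC and -0.60 (-0.83 to -0.38) in CC. In T cells the 4 libraries lay between 28.4 and 35.9 CPM and the ratio was -0.15 (-0.40 to 0.10). Early CB had 173 CPM in C and 57.3 CPM in CK.

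Lax1, an adaptor protein that restrains antigen receptor signaling, was at 38 CPM in C and 22.9 CPM in CK in CB (79 and 108 UMIs), at 49.9 and 26.0 CPM in trans_CB_CC, and at 55.2 and 34.3 CPM in CC. WT lay next to C and K next to CK in all 3 subtypes, with WT at 37.4, 50.6 and 48.1 CPM and K at 26.7, 34.3 and 34.0 CPM. The log2 ratio of CK over C was -0.73 (-1.16 to -0.29), -0.94 (-1.27 to -0.61) and -0.69 (-1.10 to -0.27). T cells gave 0.17 (-0.05 to 0.39), with 36.8 CPM in C and 41.3 CPM in CK. Lst1, a leukocyte transmembrane protein, had ratios of -0.79 (-1.21 to -0.37), -0.65 (-0.94 to -0.36) and -1.14 (-1.53 to -0.76), and in CC its level was 88.6 CPM in WT, 78.0 CPM in C, 70.3 CPM in K and 35.4 CPM in CK. In T cells, where Lst1 is sparse, the ratio was -0.39 (-0.82 to 0.04).

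The Gimap family, GTPases that bear on lymphocyte survival, was lower in CK in CB and trans_CB_CC. All 8 members measured had ratios below 0 in CB and in trans_CB_CC, with medians of -0.47 and -0.45, and 2 and 1 of 8 were past the fold. The median of the family was -0.01 in CC, 0.14 in prememory cells and -0.05 in T cells. Gimap6 was at 130 CPM in WT, 113 CPM in C, 81.6 CPM in K and 65.6 CPM in CK in CB, with a log2 ratio of CK over C of -0.78 (-1.03 to -0.53). Its ratio was -0.58 (-0.74 to -0.41) in trans_CB_CC, -0.39 (-0.60 to -0.19) in CC and -0.07 (-0.14 to 0.00) in T cells, where it is most abundant. Gimap5 had ratios of -0.70 (-1.10 to -0.29) in CB and -0.68 (-0.97 to -0.39) in trans_CB_CC, and 0.06 (-0.26 to 0.38) in CC. T cells express these genes as well. T cell markers summed to 60.1 CPM in C and 78.6 CPM in CK in CB, and the part of T cell RNA in the Gimap levels was not tested.

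**Figure D2:**
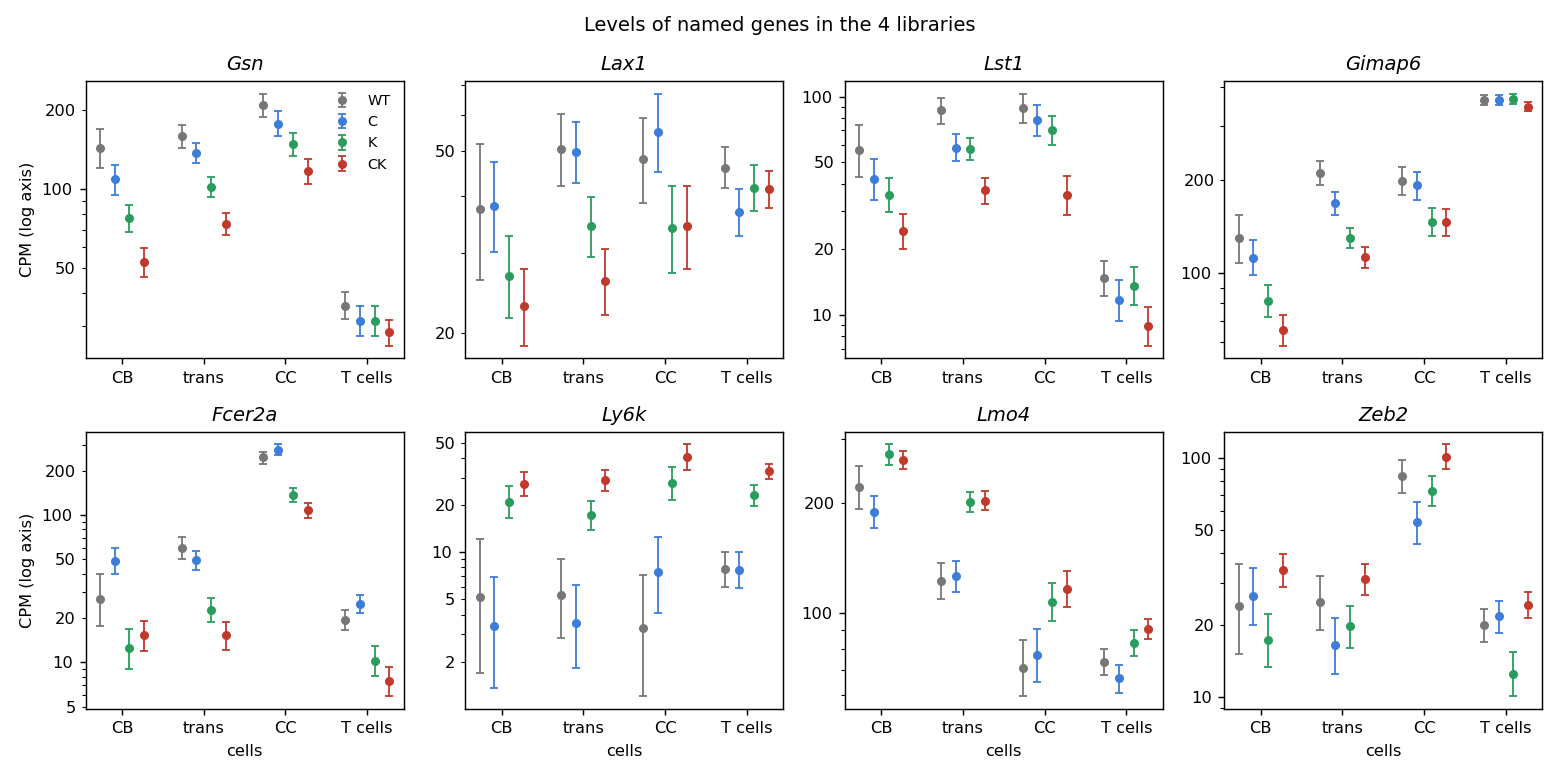
Levels (CPM, log axis) of 8 named genes in CB, trans_CB_CC, CC and T cells of the WT, C, K and CK libraries; points are summed counts of 1 library and bars exact 95% Poisson intervals. Gsn and Gimap6 are ordered from WT down to CK in CB, with T cells nearly level, whereas Fcer2a and Ly6k split the libraries with a floxed Kmt2d allele (K, CK) from those without (WT, C) in T cells as well.

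Fcer2a and Ly6k showed the largest ratios among the genes past the fold in all 3 subtypes. Fcer2a encodes CD23, the low-affinity receptor for IgE, which marks follicular B cells. Its level in CC was 246 CPM in WT, 278 CPM in C, 137 CPM in K and 108 CPM in CK, and in CB at 27.0, 49.1, 12.5 and 15.3 CPM. The libraries with a floxed Kmt2d allele were thus the lower ones. The log2 ratio of CK over C was -1.68 (-2.14 to -1.23) in CB, -1.69 (-2.08 to -1.31) in trans_CB_CC, -1.36 (-1.57 to -1.15) in CC and -2.12 (-2.83 to -1.43) in early CB. T cells gave -1.75 (-2.14 to -1.36), on levels of 25 CPM in C and 7.44 CPM in CK, and relative to T cells the ratio in CC was 0.39. Ighd, another gene of follicular B cells, had ratios of -0.66 in CB, -0.80 in trans_CB_CC, -0.27 in CC and -0.81 in T cells. Markers of follicular and marginal zone B cells summed to 513 CPM in C and 324 CPM in CK in CC, and to 1017 and 686 CPM in B cells outside the annotation. The part of RNA carried over from such cells in the Fcer2a ratios was not tested. Hbb-bt, a hemoglobin chain, had log2 ratios of -0.72 in CB, -1.58 in trans_CB_CC, -1.24 in CC and -1.3 in T cells. Without 1 cell of C that held most hemoglobin UMIs of trans_CB_CC, the ratio of Hbb-bt there was -0.92. Erythroid markers, all of them globin or heme genes, summed to 510 CPM in C and 107 CPM in CK in T cells and to 1359 and 13.7 CPM in B cells outside the annotation, and the part of carried-over red cell RNA in Hbb-bt was not tested.

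Ly6k, a cell surface protein of the Ly6 family, was at 5.20 CPM in WT, 3.37 CPM in C, 21.0 CPM in K and 27.4 CPM in CK in CB. It was at 5.30, 3.54, 17.3 and 29.0 CPM in trans_CB_CC and at 3.28, 7.43, 27.6 and 40.6 CPM in CC. T cells had 7.82 CPM in WT, 7.76 CPM in C, 23.2 CPM in K and 32.9 CPM in CK. In each of these cell groups K and CK were above WT and C, but the groups come from the same libraries. The share of all genes with such an order was not formed. This also holds for the orders given above for Gsn, Lax1 and Fcer2a, which have no background beside them. The fold of CK over C was 8.13 in CB, 8.18 in trans_CB_CC and 5.46 in CC, on 7, 12 and 14 UMIs in C, and 4.24 in T cells, on 59 UMIs in C. Ly6k lies on chromosome 15 (GRCm38, minus strand, 74796874 to 74799986), the chromosome of Kmt2d (minus strand, 98831669 to 98871204), 24.1 Mb away. Its neighbor Ly6d (minus strand, 74762056 to 74763620) lies equally far from Kmt2d and was lower in CK in CB and T cells.

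Of the other genes that were higher in CK in all 3 subtypes, Gm10076, a gene of unknown function, had log2 ratios of 0.74 in CB, 0.61 in trans_CB_CC, 0.65 in CC and 0.65 in T cells. It was thus higher in CK by a similar amount in B and T cells. Akap12, a scaffold for protein kinase A, had ratios of 0.69 (0.31 to 1.09), 0.93 (0.61 to 1.27) and 0.83 (0.21 to 1.47), and 0.74 (0.40 to 1.09) in T cells. Gm26917 was at 78.9 CPM in C and 146 CPM in CK in CB, with ratios of 0.88 (0.64 to 1.14), 0.94 (0.74 to 1.15) and 0.67 (0.37 to 0.98), against 0.25 (0.11 to 0.40) in T cells. In that gene WT was at 141 CPM and K at 130 CPM in CB, so that C was the low library. Trio, a guanine nucleotide exchange factor on the same chromosome as Kmt2d but 71.0 Mb away, had ratios of 1.04 (0.30 to 1.86), 0.59 (0.14 to 1.05) and 0.66 (0.26 to 1.08), and 0.53 (0.02 to 1.05) in T cells, at 1.44-fold just under the threshold.

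Among abundant genes, those at 100 CPM or more in C or CK, the extremes differed by subtype. The 5 lowest in CB were Gsn, Ly6d, Gimap6, Ltb and Shisa5. Ltb, lymphotoxin beta, which organizes follicular stroma, was at 306 CPM in C and 184 CPM in CK, giving a log2 ratio of -0.74 (-0.89 to -0.59), with 303 CPM in WT and 256 CPM in K. Its ratio was -0.42 (-0.51 to -0.33) in trans_CB_CC, -0.28 (-0.40 to -0.16) in CC and -0.19 (-0.25 to -0.13) in T cells. Lta, lymphotoxin alpha, its partner subunit, had ratios of -0.50 (-0.95 to -0.03) in CB, -0.73 (-0.97 to -0.49) in trans_CB_CC and -0.57 (-0.85 to -0.28) in CC, and -0.18 (-0.50 to 0.14) in T cells. Both subunits of lymphotoxin were thus lower in CK in each of the 3 subtypes. Ly6d was at -0.88 in CB and at -0.88 in T cells. Shisa5 had -0.68 (-0.92 to -0.44) in CB, against -0.08 (-0.12 to -0.03) in T cells.

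Among the 5 highest in CB were Hist1h2ap, Gm26917, Gm10076 and Hist1h1c. Hist1h2ap, a replication-dependent histone gene, was at 133 CPM in C and 303 CPM in CK in CB, giving a log2 ratio of 1.19 (1.01 to 1.38), and the ratio was larger in T cells, at 2.15 (1.83 to 2.48). Histone mRNAs of this class lack a poly(A) tail for the most part, and the libraries were primed on poly(A). Hist1h1c, a linker histone, was at 126 CPM in C and 198 CPM in CK, a ratio of 0.66 (0.46 to 0.86), against 0.04 (-0.15 to 0.23) in T cells and -0.05 (-0.39 to 0.29) in trans_CB_CC.

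In CC, Zeb2 and Ms4a6c stood out among the 5 highest, which also held Efnb1 and Gm26917. Zeb2, a transcription repressor of the zinc finger class, was at 83.6 CPM in WT, 53.6 CPM in C, 72.7 CPM in K and 101 CPM in CK. Its log2 ratio of CK over C was 0.92 (0.58 to 1.26) in CC, 0.91 (0.47 to 1.37) in trans_CB_CC and 0.35 (-0.10 to 0.82) in CB, and 0.16 (-0.12 to 0.45) in T cells. Ms4a6c, of the membrane-spanning 4-domain family that also holds CD20, was at 48.8 CPM in C and 101 CPM in CK, a ratio of 1.05 (0.70 to 1.40), with 0.69 (0.34 to 1.04) in T cells. Efnb1, ephrin B1, a surface ligand of GC B cells, was at 81.2 CPM in C and 130 CPM in CK, a ratio of 0.68 (0.40 to 0.96), with 0.56 (0.17 to 0.96) in T cells. The lowest were Fcer2a, Gsn, Tm6sf1 at -0.60 (-0.88 to -0.32), Lta and Ssbp3 at -0.53 (-0.80 to -0.26).

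In trans_CB_CC, Gm26917, Ccnb2, Lmo4 and Pclaf were among the 5 highest. Lmo4, a LIM-only cofactor of transcription, was at 126 CPM in C and 203 CPM in CK, with WT at 123 CPM and K at 202 CPM. Its log2 ratio of CK over C was 0.69 (0.53 to 0.85) there, 0.47 (0.30 to 0.63) in CB and 0.60 (0.31 to 0.89) in CC, and 0.45 (0.29 to 0.61) in T cells. Of the 5 lowest, 3 encode hemoglobin chains, namely Hba-a1, Hba-a2 and Hbb-bs, and their values rest on 1 cell of C. That cell held 3630 of the 3866 hemoglobin UMIs of trans_CB_CC in C, and the next cell 10. Without it the ratios were -1.07 for Hba-a1, -1.75 for Hba-a2 and -1.12 for Hbb-bs, beside that of Hbb-bt given above. The other 2 were Gsn and Ifi27l2a, an interferon-induced gene, which was at 238 CPM in C and 150 CPM in CK, a ratio of -0.67 (-0.81 to -0.53), against 0.05 (-0.01 to 0.10) in T cells.

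Genes of antigen presentation by MHC class II were lower in CK by a small amount that ran through the list. Of 11 genes, 11 had log2 ratios below 0 in early CB, 10 in CB, 11 in trans_CB_CC and 11 in CC, with medians of -0.35, -0.21, -0.24 and -0.15. The median of early CB was 0.01 when cells above the limit on genes were added. No gene of the list was past the fold in these subtypes, and the median over all genes was 0.00 in CB and 0.01 in trans_CB_CC and CC. Prememory cells were level, with a median of -0.01, and T cells, in which B cell RNA was counted too, had a median of -0.10, with 7 of 11 below 0 and H2-Eb2 past the fold upward at 0.87. B cells outside the annotation had a median of -0.22, as low as CB and trans_CB_CC.

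Ciita, the transactivator that switches on the MHC class II genes, was at 111 CPM in WT, 86.1 CPM in C, 69.6 CPM in K and 61.6 CPM in CK in CB, and at 216, 196, 152 and 151 CPM in CC. Its log2 ratio of CK over C was -0.48 (-0.76 to -0.21) in CB, -0.35 (-0.55 to -0.15) in trans_CB_CC and -0.38 (-0.59 to -0.17) in CC, and -0.44 (-0.71 to -0.16) in T cells. H2-Oa, a subunit of H2-O, which restrains peptide loading, had ratios of -0.46 (-0.67 to -0.24), -0.45 (-0.62 to -0.29) and -0.19 (-0.34 to -0.04), with -0.23 (-0.42 to -0.04) in T cells. H2-Ob, its partner, had -0.48, -0.24 and -0.16. Cd74, the invariant chain, was at 20915 CPM in C and 18168 CPM in CK in CB and at 41134 and 39011 CPM in CC, ratios of -0.20 and -0.08. Of the chains that present peptide, H2-Ab1 was at -0.02 in CB and -0.05 in CC, and H2-Aa at -0.09 and -0.15. For H2-Aa, H2-Ab1 and H2-Eb1, K was higher than WT in CB and CC, the opposite direction to CK over C.

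**Figure D3:**
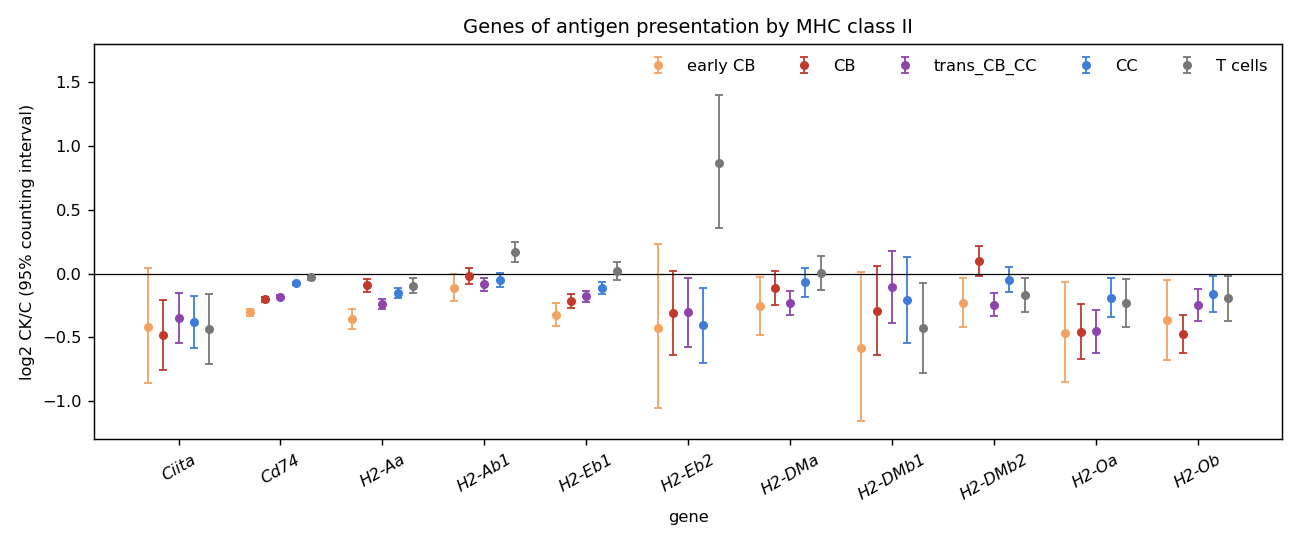
Log2 ratio of CK over C for 11 genes of antigen presentation by MHC class II in early CB, CB, trans_CB_CC, CC and T cells; points are ratios of summed counts and bars exact 95% counting intervals. Nearly all GC B cell points lie between 0 and -0.6, with H2-DMb2 in CB at 0.10 the exception, and for each of the 11 genes the CC point lies nearer to 0 than that of early CB.

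Genes induced in the light zone were lower in CK in early CB, CB and trans_CB_CC and not in CC. Of 9 members with enough UMIs, 9 were below 0 in early CB and CB and 8 in trans_CB_CC, with medians of -0.57, -0.35 and -0.33. In CC, where these genes summed to 2003 CPM in C against 411 CPM in CB, 4 of 11 were below 0 and the median was 0.18, and prememory cells had 0.18 as well. The list median was 0.01 in T cells and -0.30 in B cells outside the annotation. Fcer2a is part of this list and was past the fold in CB, trans_CB_CC and CC, and Il4i1, an amino acid oxidase, and Cd40 were past it in trans_CB_CC. Cd86, a costimulatory ligand, had log2 ratios of -0.35 (-0.70 to 0.01) in CB, -0.33 (-0.58 to -0.08) in trans_CB_CC and -0.13 (-0.37 to 0.11) in CC. Cd83, which stabilizes MHC class II at the surface, was at -0.04 (-0.31 to 0.23), -0.26 (-0.44 to -0.07) and 0.18 (0.05 to 0.30). Cd40, the receptor for T cell help, was at 29.5 CPM in C and 17.6 CPM in CK in trans_CB_CC, a ratio of -0.75 (-1.16 to -0.33), and its interval included 0 in CB and CC. Cd40 in T cells had -0.57 (-1.02 to -0.12). Myc, which is induced in the few CC selected to re-enter the dark zone, was at 16.5 CPM in C and 27.0 CPM in CK in CC (31 and 73 UMIs), a ratio of 0.71 (0.09 to 1.37), and at 36.8 CPM in K and 18.6 CPM in WT.

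Surface genes of contact between B and T cells had medians of -0.22 in CB, -0.14 in trans_CB_CC and -0.12 in CC, with 1, 1 and 0 genes past the fold downward. Tnfrsf13b, the receptor TACI for survival factors of the TNF family, was at 122 CPM in C and 85.8 CPM in CK in CB, giving a log2 ratio of -0.51 (-0.74 to -0.28), at -0.41 (-0.61 to -0.22) in trans_CB_CC, and at -0.34 (-0.57 to -0.10) in CC, against 0.10 (-0.11 to 0.30) in T cells. Il21r, the receptor for the helper cytokine IL-21, was at -0.50 (-0.78 to -0.21) in CB, but at 0.06 and 0.01 in trans_CB_CC and CC. Genes of the NF-kB response had medians of -0.16, -0.12 and 0.10 in CB, trans_CB_CC and CC, with none past the fold, and Nfkbia, the inhibitor that NF-kB itself induces, was within -0.16 and 0.12 in them. Genes of B cell receptor signaling had medians of -0.10, -0.09 and -0.07, with 1 gene past the fold, Cd72 in trans_CB_CC. Cd72, an inhibitory coreceptor, was higher in CK, with 0.51 (0.24 to 0.79), 0.75 (0.47 to 1.03) and 0.58 (0.39 to 0.77), and 0.04 (-0.15 to 0.23) in T cells. In CC, Cd72 was at 265 CPM in WT, 177 CPM in C, 386 CPM in K and 264 CPM in CK, so that WT and CK were level.

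**Figure D4:**
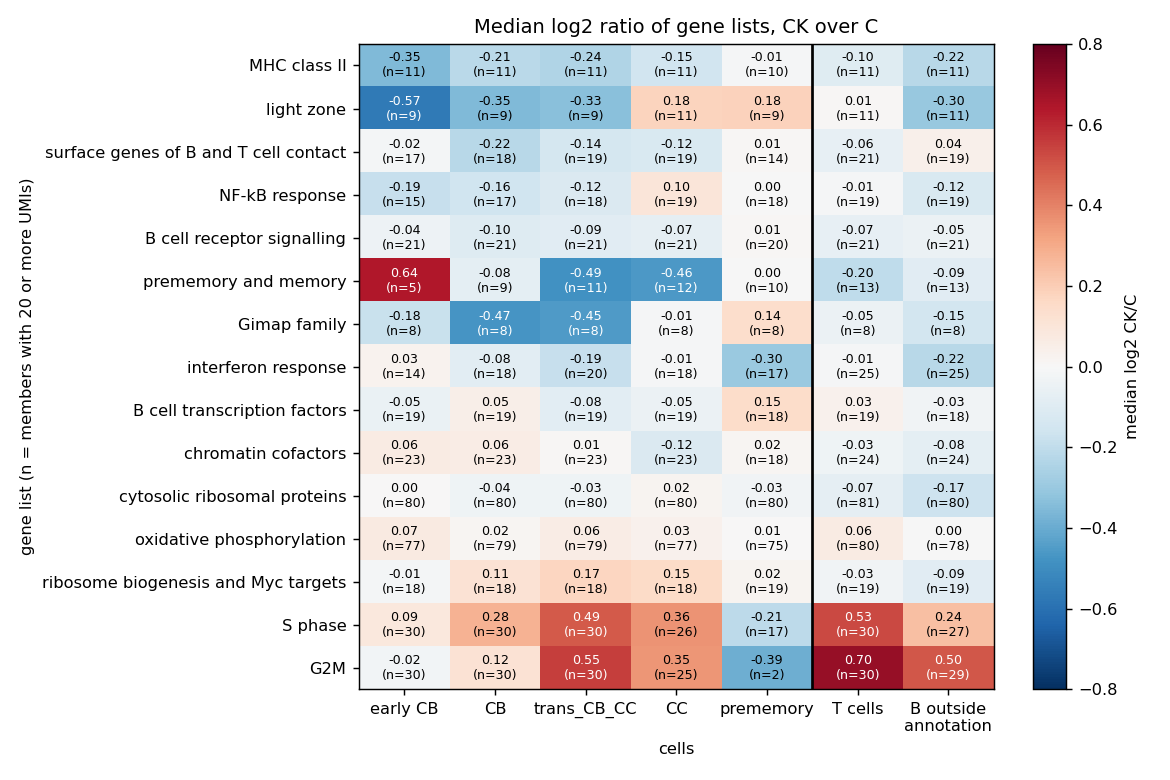
Median log2 ratio of CK over C (color, and upper number in each cell) of 15 gene lists in 5 GC B cell subtypes, T cells and B cells outside the annotation, with the number of members that had 20 or more UMIs (n). The MHC class II and Gimap rows are blue in CB and trans_CB_CC, at -0.21 to -0.47, and the S phase and G2M rows are red there but as red or redder in T cells, at 0.53 and 0.70.

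Genes of the cell cycle had medians above 0 in CB, trans_CB_CC and CC, and higher ones in T cells. Prememory cells had medians of -0.21 over 17 S phase genes and of -0.39 over 2 G2M genes. S phase genes had medians of 0.28 in CB, 0.49 in trans_CB_CC and 0.36 in CC, with 2 of 29, 9 of 29 and 3 of 17 genes past the fold upward and none downward. G2M genes had medians of 0.12, 0.55 and 0.35, with 0 of 30, 6 of 20 and 1 of 5 past it upward. T cells had 0.53 for S phase, with 11 of 30 past the fold, and 0.70 for G2M, with 22 of 30. Rrm2, a subunit of ribonucleotide reductase, was at 44.0 CPM in C and 91.4 CPM in CK in trans_CB_CC, giving a log2 ratio of 1.06 (0.79 to 1.33), against 0.76 (0.60 to 0.92) in T cells. Mki67, the proliferation marker Ki-67, was at 924 CPM in C and 961 CPM in CK in CB, a ratio of 0.06 (-0.02 to 0.13), at 0.42 (0.26 to 0.59) in trans_CB_CC, and at 0.78 (0.65 to 0.92) in T cells. Pclaf, a PCNA clamp factor, was at 0.62 (0.51 to 0.73) in trans_CB_CC and 0.84 (0.74 to 0.93) in T cells. GC markers also had a median of 0.55 in T cells, with Bcl6 at 0.60 (0.30 to 0.91). With T cells subtracted, the medians were below 0 for S phase and G2M in CB, trans_CB_CC and CC. The part of GC B cell RNA in the T cell values was not tested.

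Identity genes of GC B cells had ratios on either side of 0. The dark zone list had medians of -0.03 in early CB, -0.08 in CB and 0.10 in trans_CB_CC, and of -0.32 in CC, where 4 of 4 members were below 0 and none was past the fold. Relative to T cells, its median in CC was -0.58. Bcl6, the repressor that establishes the GC program, had log2 ratios of -0.25 (-0.58 to 0.08) in CB, -0.23 (-0.49 to 0.03) in trans_CB_CC and -0.18 (-0.54 to 0.18) in CC. S1pr2, which confines cells to the GC, had a ratio of 0.08 (-0.13 to 0.30), and Cxcr4, which draws cells into the dark zone, at -0.35 (-0.78 to 0.09) in CB. Medians of B cell transcription factors were 0.05, -0.08 and -0.05 in CB, trans_CB_CC and CC, with none past the fold. Chromatin cofactors had 0.06, 0.01 and -0.12, with Ep300, the paralog of Crebbp, at 0.05 (-0.21 to 0.32) in CB, and Kmt2c, the paralog of Kmt2d, at 0.10 (-0.26 to 0.48). Cytosolic ribosomal proteins had medians of -0.04, -0.03 and 0.02 and oxidative phosphorylation 0.02, 0.06 and 0.03. Ribosome biogenesis and Myc targets had 0.11, 0.17 and 0.15, with 15 of 18, 16 of 18 and 17 of 18 members above 0, against -0.03 in T cells and none past the fold.

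Genes of memory B cells and of exit were sparse in CB, trans_CB_CC and CC. The list had medians of -0.08 over 9 genes, -0.49 over 11 and -0.46 over 12. Its sum was 692 CPM in C and 686 CPM in CK in trans_CB_CC, and 907 and 977 CPM in CC. With cells thinned to 2000 UMIs, the median was -0.03 in trans_CB_CC and 0.12 in CC. T cells had a median of -0.20, with 10 of 13 genes below 0. In CB, 1 gene of the list was past the fold downward. That gene was Klf2, which governs lymphocyte trafficking, at 81.3 CPM in C and 46.9 CPM in CK, giving a log2 ratio of -0.79 (-1.09 to -0.50), and -0.20 (-0.24 to -0.16) in T cells. Gpr183, the receptor EBI2 that guides exit from the follicle, was at 12.4 CPM in C and 6.85 CPM in CK in trans_CB_CC (42 and 39 UMIs), a ratio of -0.86 (-1.52 to -0.19). Cd38 was at 69.5 CPM in C and 97.8 CPM in CK in CC, a ratio of 0.49 (0.19 to 0.81), opposite in sign to the list median of -0.46. Ccr6, Irf4 and Prdm1 held at most 24 UMIs per library and subtype in CB, trans_CB_CC and CC and were not compared.

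Interferon response genes had medians of -0.08 in CB, -0.19 in trans_CB_CC and -0.01 in CC, with 2 of 14, 3 of 15 and 1 of 13 past the fold downward and none upward. Ifi203 was at 26.5 CPM in C and 12.1 CPM in CK in CB, giving a log2 ratio of -1.13 (-1.69 to -0.57), and Mndal at 29.8 and 16.3 CPM, a ratio of -0.87 (-1.37 to -0.36). Both belong to a cluster of related interferon-inducible genes among which reads can be split. WT was at 14.5 CPM in both genes in CB, so that C was the high library.

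Immunoglobulin heavy chain genes differed by class. Ighm was higher in CK, at 2422 CPM in C and 3003 CPM in CK in CB, giving a log2 ratio of 0.31 (0.26 to 0.36), with 0.12 in trans_CB_CC and in CC. Ighg1, the class to which Cγ1-cre is tied, was at 184 CPM in C and 141 CPM in CK in CB, a ratio of -0.38 (-0.57 to -0.20), at 0.13 (-0.01 to 0.28) in trans_CB_CC, and at -0.27 (-0.47 to -0.06) in CC. Ighg1 in WT was at 79.0 CPM in CB, below all 3 other libraries. In T cells the median of heavy chain genes was 1.85, with Ighg1 at 36.7 CPM in C and 117 CPM in CK. Plasma cell markers, among them Jchain and Xbp1, summed there to 214 CPM in C and 388 CPM in CK and in B cells outside the annotation to 2175 and 4934 CPM, and the part of carried-over antibody RNA in these values was not tested. Their sum was lower in CK in CB, at 1216 against 1455 CPM, and higher in CK in prememory cells, at 203 against 157 CPM.

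Early CB and prememory cells had fewer UMIs and gave fewer genes. In early CB, Gsn had a log2 ratio of -1.60 (-2.0 to -1.19), and Foxp1, a forkhead transcription factor, was at 164 CPM in C and 255 CPM in CK, giving a log2 ratio of 0.64 (0.33 to 0.96). S phase and G2M genes were level in early CB, with medians of 0.09 and -0.02. In prememory cells Fcer2a was at 353 CPM in C and 191 CPM in CK, a ratio of -0.88 (-1.35 to -0.44), and Cr2, a complement receptor, at 198 and 109 CPM, -0.86 (-1.5 to -0.27). Ifi27l2a was at -0.68 (-1.04 to -0.34) in prememory cells, Ighd at 0.15 (-0.20 to 0.49), and Lmo4 was lower in CK, at 155 CPM in C and 82.6 CPM in CK, the opposite direction to trans_CB_CC and CC.

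The module scores deposited with the annotation differed by less than their spread between cells for the dark and light zone. They were not always on the side of the gene lists above. In every subtype from early CB to prememory cells, the dark zone score was higher in CK and the light zone score lower. The largest differences, both in early CB, were 0.0141 for the dark zone and -0.0138 for the light zone, against SDs of 0.0421 to 0.0515. The dark zone score was 0.136 ± 0.0849 (SD over 421 cells) in C and 0.140 ± 0.0849 (1013 cells) in CK in CB, and the light zone score 0.0202 ± 0.0449 (515 cells) and 0.0191 ± 0.0478 (936 cells) in CC. Both differences were far below the spread between cells, and both were opposite in sign to the list medians of -0.08 and 0.18. The S phase score of trans_CB_CC was 0.00120 in C and 0.0892 in CK, with SDs of 0.224 and 0.234.

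The mice differ in the floxed Kmt2d allele, so genes that lie near it on chromosome 15 were counted apart. Within 5 Mb of Kmt2d, 55 genes were measured in CB, with a median log2 ratio of 0.00, and 1 was past the fold upward and none downward. In trans_CB_CC 2 of 60 were past it upward and 1 downward, and in CC 0 of 48 upward and 2 downward. Over the whole of chromosome 15, a window chosen after seeing the data, 8 of 240 genes were past the fold upward in CB (3.33%) against 1.74% on the other chromosomes, 8 of 265 in trans_CB_CC (3.02%) against 1.77%, and 5 of 197 in CC (2.54%) against 1.64%, whereas in T cells the share was 0.575% against 2.45%. Irak4, a kinase of Toll-like receptor signaling, was past it in CB upward, on 20 UMIs in C and 86 in CK, and in CC downward, on 58 and 55 UMIs. The other genes past it were Aaas and Racgap1, upward in trans_CB_CC, Scn8a, downward there, and Tuba1a, downward in CC. In T cells none of 72 genes was past the fold in either direction.

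The contrast of K with WT also sets a floxed Kmt2d allele against none, on a background with both Crebbp alleles intact, and shares no library with CK over C. Of genes past the fold upward in CK over C with at least 100 UMIs in K and WT, 73.7% were higher in K than in WT in CB (28 of 38), 67.1% in trans_CB_CC (47 of 70) and 64.4% in CC (38 of 59). Over all genes, 41.6%, 42.4% and 43.6% were higher in K. Of genes past it downward, 83.1% were lower in K in CB (54 of 65), 86.3% in trans_CB_CC (63 of 73) and 82.2% in CC (37 of 45). Where K over WT was centered on its median of -0.08, -0.09 and -0.07, the shares with the same sign were 73.7%, 74.3% and 71.2% upward and 76.9%, 75.3% and 77.8% downward. In T cells the centered shares were 44.3% upward (70 of 158) and 69.2% downward (36 of 52).

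Across genes, Pearson's r between the 2 log2 ratios was 0.216 in CB (4675 genes), 0.237 in trans_CB_CC (5880 genes) and 0.203 in CC (4354 genes), and 0.060 in T cells (8286 genes). Genes are not independent replicates, and each ratio carries the counting error and the library differences of 1 pair of mice. Relative to T cells of the same libraries, the share with the same sign was 51.1% for genes lower in CB. It was 63.5% for those lower in trans_CB_CC and 56.1% for those lower in CC. For genes higher in trans_CB_CC it was 52.6%, and for those higher in CB and CC it stayed within the interval of the share without T cells. These ratios were not centered, and the median of K over WT was -0.16 in T cells. No share over all genes was formed beside them. The K library stood apart from the others in ways that touch this contrast. Of the spliced and unspliced UMIs of its annotated cells, 22.6% were unspliced, against 27.2% in CK, 29.3% in C and 30% in WT. Cytosolic ribosomal proteins summed to 196333 CPM in K in CB, against 163028 to 169139 CPM in the other libraries. In T cells they summed to 332645 CPM in K, against 273224 to 289045 CPM. Ep300 and Kmt2c were lower in K than in WT, with log2 ratios of -0.83 and -0.85 in CB and of -0.93 and -1.03 in T cells, whereas neither was past the fold in CK over C.

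With K over WT centered on its median, named genes past the fold in both contrasts in the same direction were Gsn, Gimap6, Lst1, Klf2, Hist1h2ap and Gm10076 in CB, Fcer2a, Ly6k, Lmo4, Cd72, Ccnb2, Rrm2, Pclaf and Gm10076 in trans_CB_CC, and Fcer2a, Lmo4, Ms4a6c, Myc, Pclaf and Gm10076 in CC. In CB, 12 of the 38 genes past it upward in CK over C were so in both, and 17 of the 65 past it downward. Another 3 were higher in CK over C and lower in K over WT, namely Akap12, Hist1h1a and Hist1h1c. In trans_CB_CC the counts were 24 of 70 upward and 22 of 73 downward in both, with 3 opposed. In CC they were 16 of 59 and 9 of 45, with 3 opposed. T cells had 13 of 158 upward and 7 of 52 downward in both, and 29 opposed. The share of all genes past the fold in K over WT was not formed, so these overlaps have no background beside them. The log2 ratio of K over WT was -0.89 for Gsn, -0.67 for Gimap6 and -0.69 for Lst1 in CB, and that of Fcer2a was -1.39 in trans_CB_CC and -0.84 in CC. Zeb2, higher in CK over C, was at -0.34 in trans_CB_CC and -0.20 in CC.

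**Figure D5:**
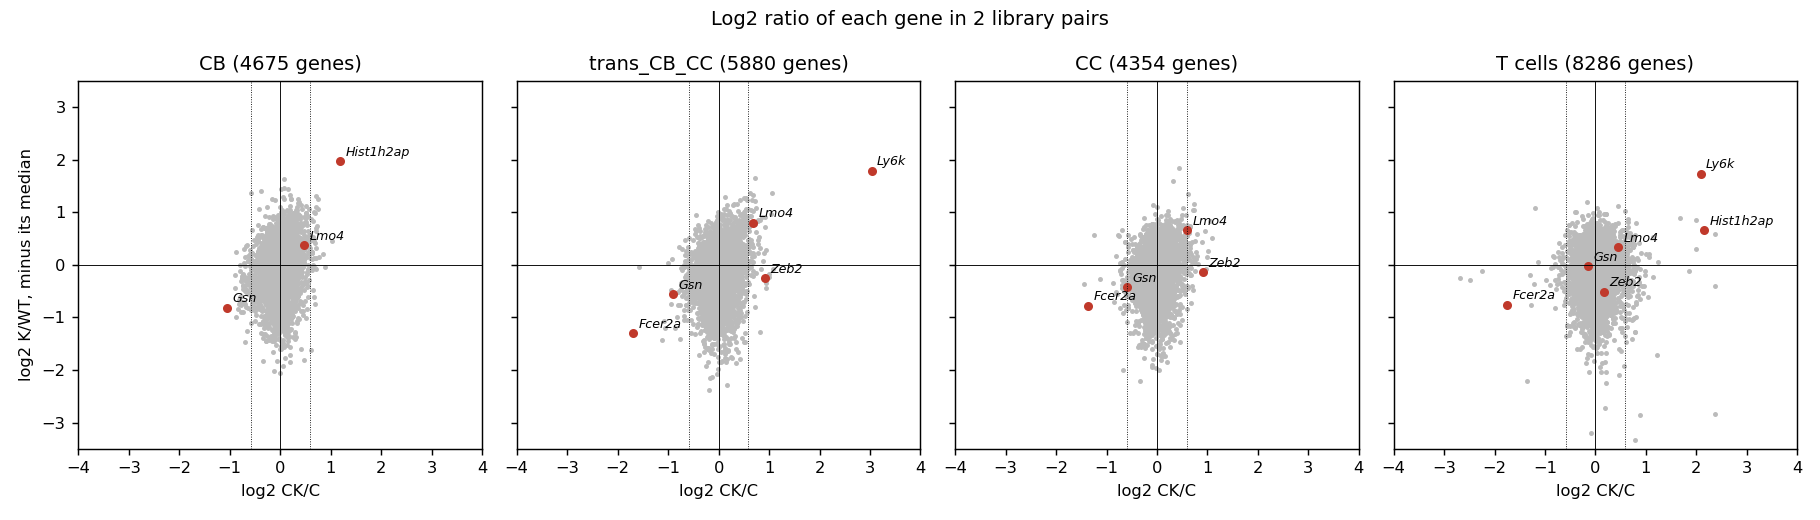
Log2 ratio of CK over C (x axis) against that of K over WT minus its median over genes (y axis) in CB, trans_CB_CC, CC and T cells; each point is 1 gene with at least 100 UMIs in both pairs, dotted lines mark 1.5-fold, and red points are named genes where they were measured. Pearson's r is 0.216, 0.237 and 0.203 in the first 3 panels and 0.060 in T cells, and Fcer2a lies at the lower left in trans_CB_CC, CC and T cells.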

How the data were processed

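Splenic B220+IgD- cells of 1 mouse per genotype (WT, C, K and CK), taken 10 days after immunization, were profiled by 10x single-cell RNA sequencing of 3' ends. The authors aligned reads to mm10 with Cell Ranger (version 3.0 per the labels, 3.0.2 in the matrix header) and deposited raw UMI counts per gene and barcode. Their table of GC B cells, made in Seurat 4.0 by label transfer, gives subtype names, UMI counts, the percent of mitochondrial counts and module scores per cell, as deposited by the authors, and holds cells below 2500 genes and 8% mitochondrial UMIs. Cells were taken at these names, with no doublet removal, and Scrublet in scanpy 1.11.5 marked 4.02% of annotated cells in C and 2.20% in CK. Other programs were Python 3.11.15, numpy 2.4.6, scipy 1.17.1, pandas 2.3.3, scikit-learn 1.9.0 and matplotlib 3.10.9.

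For each subtype of a library, counts were added over cells and expressed as CPM, and log2 ratios of CK over C were formed with exact conditional binomial intervals. Shares had Clopper-Pearson intervals, and differences of shares were combined from them. A gene was past the fold at 1.5-fold with 100 UMIs or more over both libraries, and list medians used members with 20 UMIs or more. The floor for a count of 0 was 3 counts. Named genes were a fixed list, the 5 highest and 5 lowest at 100 CPM or more in CB, trans_CB_CC and CC (without immunoglobulin variable, joining and diversity genes and mitochondrial genes), up to 10 in each direction past the fold in all 3 subtypes and not in T cells, and examples from the lists. Some genes that these rules chose are not reported here. Genes past the fold in all 3 and also in T cells, the genes near Kmt2d, and examples outside these rules were named after their values were seen. Members and gene lists were chosen with earlier results of these data known. B cells outside the annotation were barcodes with at least 2 UMIs of B cell genes, no Cd3 or GC gene UMI, and values within the limits on genes and mitochondrial UMIs. Positions come from the GENCODE annotation of GRCm38, matched by identifier for 30934 of 31053 genes. The scripts were tested on simulated data. Alternatives changed the reference cells, scaling, UMI minimum, fold, thinning of cells to 2000 UMIs, and the cells included.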

Additional observations from a re-analysis of the deposited data

Results flagged for a closer look

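For 3 of the genes named in the report, the log2 ratio of CK over C and that of K over WT pointed in opposite directions, both past the fold. The difference was not tested, since each genotype has 1 library. Akap12 in CB was at 0.69 in CK over C and at -0.82 in K over WT, a difference of 1.52. Relative to T cells, its ratio of CK over C in CB was -0.045. Hist1h1c in CB was at 0.66 and -0.69, a difference of 1.35. Trio in CC was at 0.66 and -0.80, a difference of 1.46.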

How the results depend on the processing

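No paired analysis was possible because each genotype has 1 library, and no library could be left out for the same reason. Depth limits the comparison most in prememory cells of CK, which number 115. The T cells without a UMI of Cd79a, Cd79b or Ms4a1 as reference, the removal of 1 hemoglobin-rich cell and the window of the whole chromosome 15 were chosen after seeing the data. Over the alternatives run, 26 values of list medians that lay 0.2 or more from the median of all genes changed side. Another 93 shifted by 0.2 or more otherwise, and 916 stayed within 0.2. Of named genes, 23 values past the fold changed sign, 247 left the counting interval otherwise, and 1015 stayed within it. The causes of the shifts below were not tested, except that a stricter minimum or fold leaves fewer genes by construction.

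When cells past the limit on genes were added, the differences in share were 0.83 points for early CB, 1.89 for CB and -5.89 for prememory cells, and the ratios of UMIs per cell 0.719 for early CB and 0.797 for CB. Over all barcodes as the denominator, they were 1.56 for early CB, 4.04 for trans_CB_CC, 2.12 for CC and -1.36 for prememory cells.

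Counts of genes past the fold depended on the setting in each subtype, given here as higher and then lower in CK. At 50 UMIs or more they were 241 and 178 in early CB, 231 and 267 in CB, 262 and 234 in trans_CB_CC, 229 and 165 in CC, and 90 and 153 in prememory cells. At 400 UMIs or more they were 4 and 0 in early CB, 16 and 7 in CB, 16 and 15 in trans_CB_CC, 7 and 3 in CC, and 0 and 2 in prememory cells. At 2-fold they were 4 and 4, 11 and 5, 11 and 12, 5 and 6, and 0 and 4 in the same order. Relative to B cells outside the annotation they were 124 and 128 in early CB, 252 and 218 in CB, 326 and 195 in trans_CB_CC, 181 and 124 in CC, with 30 higher in prememory cells. Against T cells the lower genes numbered 161 in early CB, 237 in CB, 175 in trans_CB_CC and 124 in CC, and the higher genes 23 in prememory cells. With cells thinned to 2000 UMIs the lower genes numbered 20 in early CB, 58 in CB and 13 in prememory cells. With cells above the gene limit the higher genes numbered 69 in CB, 68 in trans_CB_CC and 25 in prememory cells.

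List medians that changed side were mostly those of the cell cycle. Relative to T cells, G2M genes were at -0.099 in trans_CB_CC and -0.27 in CC, and S phase genes at -0.15 in CB, -0.069 in trans_CB_CC and -0.15 in CC. Against T cells without B gene UMIs, G2M genes were at -0.30 and -0.37, and S phase genes at -0.16, -0.064 and -0.034, in the same order. Relative to B cells outside the annotation, G2M genes were at 0.031 in trans_CB_CC and -0.048 in CC. G2M genes of prememory cells were at 1.03 with added cells and at 0.048 by the list total. Light zone genes of prememory cells were at -0.46 when thinned and at -0.041 with added cells, and immediate early genes there at -0.21 when thinned. Interferon genes of prememory cells were at -0.010 relative to T cells. The prememory and memory list was at -0.071 in early CB with added cells, and in CC at 0.12 when thinned and 0.11 by its total. Of other medians that shifted by 0.2 or more, MHC class II in early CB was at 0.0080, light zone genes in early CB at -0.31, G2M and S phase genes in trans_CB_CC at 0.19 and 0.26, and ribosome biogenesis genes in CC at -0.074 with added cells. Light zone genes in CB were at -0.14 and the prememory and memory list in trans_CB_CC at -0.033 when thinned, and that list in CC was at -0.044 without Scrublet calls. Heavy chain constant regions were at 0.040 in early CB with added cells, and by their total at 0.24 in early CB, 0.21 in CB, 0.025 in trans_CB_CC and 0.057 in CC.

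Relative to T cells, the log2 ratio was -0.045 for Akap12 in CB, -0.0045 for Ccnb2 in trans_CB_CC, -0.042 for Gm10076 in trans_CB_CC, -0.96 for Hist1h2ap in CB, and -0.22 and -0.23 for Pclaf in trans_CB_CC and CC. Fcer2a was at 0.065 in CB, 0.057 in trans_CB_CC and 0.39 in CC, and Hbb-bt at 0.58 in CB and 0.059 in CC. Relative to T cells without B gene UMIs, Ccnb2 was at -0.40, Hist1h2ap at -1.51 in CB and -0.50 in trans_CB_CC, and Pclaf at -0.28 and -0.29. Relative to B cells outside the annotation, Hba-a2 was at 0.35 in trans_CB_CC, Hbb-bt at 2.92 in CB, 2.06 in trans_CB_CC and 2.40 in CC, Hist1h2ap at -0.30 in CB, and Tm6sf1 at 0.036 in CC. Myc in trans_CB_CC was at -0.39 with added cells.

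Beside K over WT and relative to T cells, the same sign was seen in 51.1% of genes lower in CB, 52.6% of those higher and 63.5% of those lower in trans_CB_CC, and 56.1% of those lower in CC. The ratios relative to T cells were not centered on a median. With median-ratio scaling the share was 74.4% for genes lower in trans_CB_CC.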
